A study of Mus musculus with 2 samples.

Results

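The genes described here are 8 transcription regulators listed as factors of the pharyngeal pouches of the embryo. The list centres on the third pouch, from which the thymus and a parathyroid gland arise. The genes are the homeobox gene Six4, its coactivator gene Eya1, the paired box genes Pax1 and Pax9, the T-box gene Tbx1, the parathyroid regulator gene Gcm2, the LIM homeobox gene Isl2 and the corepressor gene Ripply3. They were chosen by name, and all 8 were among the 23411 genes in both deposited tables. For each gene, the RefSeq transcript with the largest sum of reads was used.

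Poly-A RNA was measured by RNA sequencing in medullary thymic epithelial cells, the cells that display tissue antigens to developing T cells, from the thymus of B6 mice. Flow sorting gave MHC-II high cells, the more mature fraction, and MHC-II low cells. Cells of 3 mice were pooled for the sort, no treatment or mutation is named for either fraction, and the labels do not give the age of the mice. Each fraction was sequenced as 1 library. Nothing was replicated, so no p-values are given, and every difference below is between these 2 libraries. Intervals are 95% intervals of the read counts, which cover counting error only, since PCR reads without molecular identifiers are not independent molecules.

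In the embryo, the pouches are outpocketings of the gut lining. Hoxa3, Pax1, Pax9, Eya1 and Six4 act in a network that forms the third pouch. Sine oculis factors such as Six4 bind DNA, and Eya proteins join them as coactivators that are also phosphatases. The pouch then splits into a thymus domain, marked by the factor Foxn1, and a parathyroid domain, marked by Gcm2. Tbx1, the gene lost in most patients with DiGeorge syndrome, is needed for the pouches to form, and Ripply3 is known in the mouse to bind Tbx1 and to bring in TLE corepressors. Isl2 is best known from motor neurons, where LIM homeobox proteins work with LDB cofactors.

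The libraries held 138368543 reads on the 23411 genes for MHC-II high and 56077471 for MHC-II low cells. Levels are given as CPM, read counts relative to a library total scaled with edgeR's TMM method, and as CPM per kilobase where genes are compared with each other. The sort was checked on markers. Of 8 listed markers of mature medullary epithelium, 6 were higher in MHC-II high cells by a whole interval beyond 2-fold, Aire being at 571 CPM in MHC-II high and 21.0 CPM in MHC-II low cells. The MHC-II genes themselves were not called, H2-Ab1 being at 4128 CPM in MHC-II high and 3266 CPM in MHC-II low cells and H2-Aa at 4485 CPM in MHC-II high and 2240.2 CPM in MHC-II low cells. Of 6 markers of immature or CCL21-producing medullary epithelium, 5 were lower. The epithelial marker Epcam was at 621 CPM in MHC-II high and 586 CPM in MHC-II low cells, and Krt8 at 1569 CPM in MHC-II high and 1955 CPM in MHC-II low cells.

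All 8 pouch genes had reads in both libraries, over a wide range of levels. Per kilobase, Pax9 was highest in MHC-II high cells, at 37.5 CPM per kilobase, and Pax1 was highest in MHC-II low cells, at 66.3 CPM per kilobase. The highest and the lowest member were 70.3-fold apart in MHC-II high and 193-fold apart in MHC-II low cells. Pax1 and Pax9 together made up 64.3% of the summed level per kilobase of the 8 genes in MHC-II high and 68.5% in MHC-II low cells. Tbx1, Gcm2 and Isl2 together made up 2.36% in MHC-II high and 2.33% in MHC-II low cells. The order in MHC-II high cells was Pax9, Pax1, Eya1, Ripply3, Six4, Isl2, Gcm2 and Tbx1. In MHC-II low cells it was the same except that Pax1 came before Pax9. Neighbours in the order were apart by their counting intervals in both libraries, except Isl2 and Gcm2 in MHC-II high cells.

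**Figure D1:**
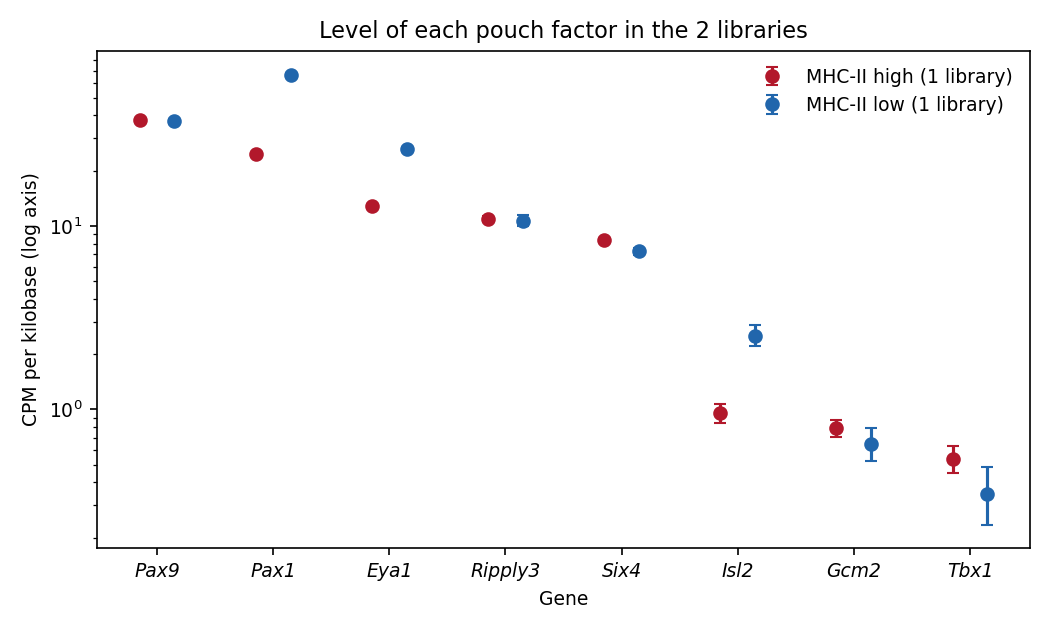
Level of each gene in CPM per kilobase (log axis) in the MHC-II high library (red, left of each pair) and the MHC-II low library (blue), with bars for the exact 95% Poisson interval of the reads. Pax1, Eya1 and Isl2 sit lower in MHC-II high cells, while the points of Pax9 and of Ripply3 lie at nearly the same height in both libraries.

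Between the fractions, 2 of the 7 members that passed the minimum of 1 CPM on average were lower in MHC-II high cells by a whole interval beyond 2-fold, namely Pax1 and Isl2, and 0 of 7 were higher. These counts depend on how the libraries are scaled, which the files do not settle. With the totals behind the deposited RPKM 0 members were lower and 1 was higher, and over all genes 471 were lower and 7232 higher. In bulk RNA, fewer cells of a type and less RNA per cell cannot be told apart. With TMM totals, of all 17438 genes past that minimum, 10.9% were lower and 14.5% were higher. Counted by the ratio alone, without its interval, 3 of 7 were lower (Eya1 was the third) and 0 were higher, against 13.4% lower and 17.4% higher over all genes. With 7 genes, these counts do not set the members apart from other genes. The median log2 ratio (MHC-II high over MHC-II low) was 0.02 over the 7 members and −0.01 over all genes compared. Tbx1 fell short of the minimum, at 0.78 CPM on average.

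**Figure D2:**
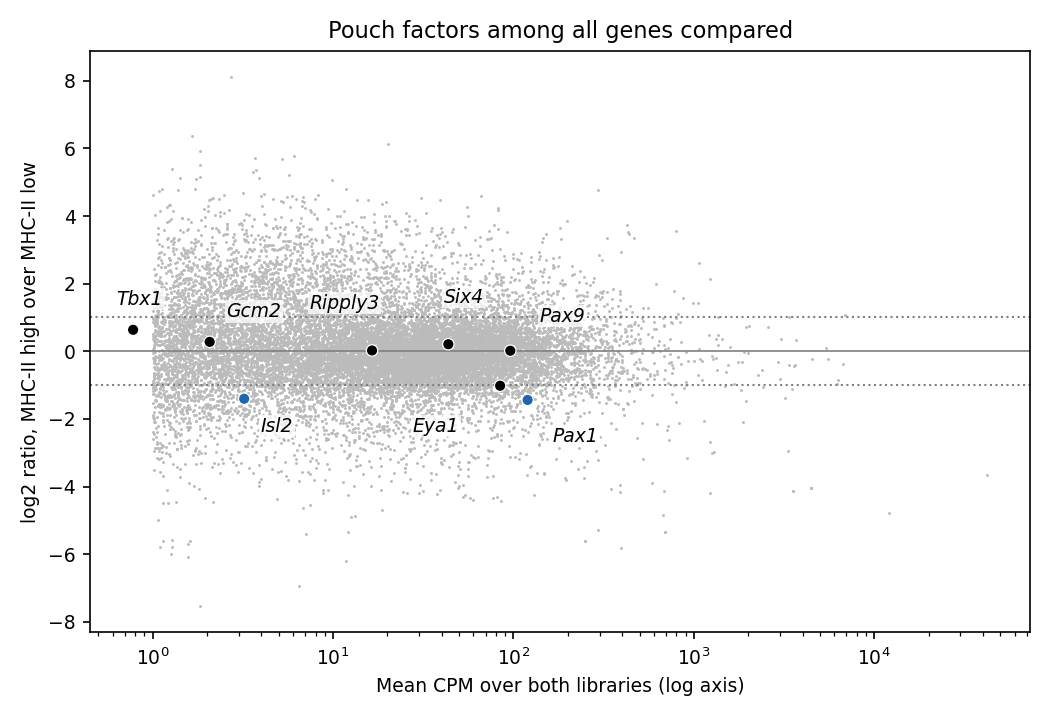
Log2 ratio (MHC-II high over MHC-II low) against mean CPM over both libraries (log axis) for the 17438 genes compared (grey), with the 8 pouch genes named. Dotted lines mark 2-fold, blue points are Pax1 and Isl2, and Tbx1 lies left of the grey cloud because it was under the minimum of 1 CPM.

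The paired box genes encode related DNA-binding proteins that act in part in each other's place in the embryo. Pax1 had 9875 reads, or 64.6 CPM, in MHC-II high and 8884 reads, or 175 CPM, in MHC-II low cells. It was 2.71-fold lower in MHC-II high cells (interval 2.63 to 2.79), a log2 ratio of −1.44, and 7.63% of the genes compared had a lower ratio. Pax9 had 14766 reads, or 96.6 CPM, in MHC-II high and 4845 reads, or 95.4 CPM, in MHC-II low cells. Its ratio was 1.01 (interval 0.98 to 1.05), with TMM totals, and it was 2.03 with the totals behind the deposited RPKM. The balance of the pair does not depend on how the libraries are scaled. Per kilobase, Pax1 stood at 0.65 times Pax9 in MHC-II high and at 1.79 times Pax9 in MHC-II low cells, a 2.74-fold lower Pax1 to Pax9 ratio in MHC-II high cells (interval 2.63 to 2.86).

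Six4 and Eya1 encode partners in a single DNA-bound complex, and their ratios differed. Six4 had 7138 reads, or 46.7 CPM, in MHC-II high and 2051 reads, or 40.4 CPM, in MHC-II low cells, a ratio of 1.16 (interval 1.10 to 1.21). Eya1 had 8526 reads, or 55.8 CPM, in MHC-II high and 5733 reads, or 113 CPM, in MHC-II low cells. It was 2.02-fold lower in MHC-II high cells, with an interval of 1.96 to 2.09 that reached below 2-fold. Both listed Eya1 transcripts, which share most of their reads, gave a log2 ratio of −1.02. The Six4 to Eya1 ratio was 2.34-fold higher in MHC-II high cells (interval 2.21 to 2.48), whatever the scaling.

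Isl2 was the other gene whose whole interval lay beyond 2-fold. It had 270 reads, or 1.77 CPM, in MHC-II high and 237 reads, or 4.67 CPM, in MHC-II low cells, which made it 2.64-fold lower in MHC-II high cells (interval 2.21 to 3.16). Its interval is wider than that of Pax1 because it rests on fewer reads.

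Per kilobase, Tbx1 and Gcm2 had the lowest levels in both libraries, the interval of Gcm2 overlapping that of Isl2 in MHC-II high cells. Tbx1 had 145 reads, or 0.949 CPM, in MHC-II high and 31 reads, or 0.611 CPM, in MHC-II low cells, a ratio of 1.55 with an interval of 1.05 to 2.37. Gcm2 had 347 reads, or 2.27 CPM, in MHC-II high and 95 reads, or 1.87 CPM, in MHC-II low cells, a ratio of 1.21 (interval 0.96 to 1.54). The interval of Gcm2 spanned equal levels and that of Tbx1 began just above them, and neither lay beyond 2-fold. Ripply3, the corepressor of Tbx1, was far above its partner in reads, with 2536 reads, or 16.6 CPM, in MHC-II high and 828 reads, or 16.3 CPM, in MHC-II low cells. Its ratio was 1.02 (interval 0.94 to 1.10). Per kilobase, Ripply3 stood at 10.9 CPM in MHC-II high and 10.7 CPM in MHC-II low cells, while Tbx1 stood at 0.534 CPM in MHC-II high and 0.344 CPM in MHC-II low cells.

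In the authors' own unit, the deposited RPKM of Pax1 was 17.5 in MHC-II high and 23.7 in MHC-II low cells, and that of Pax9 was 26.8 in MHC-II high and 13.2 in MHC-II low cells. The deposited RPKM of Six4 was 5.99 in MHC-II high and 2.59 in MHC-II low cells, and that of Eya1 was 9.21 in MHC-II high and 9.30 in MHC-II low cells. The read totals behind those values raise every log2 ratio by 1.003 relative to TMM scaling. On that scale, Six4 was 2.32-fold higher in MHC-II high cells, Pax1 and Isl2 were no longer past 2-fold, and the ratio of Eya1 was 0.990. With unscaled totals the interval of Isl2 reached below 2-fold, while Pax1 was 2.22-fold lower by a whole interval beyond 2-fold. Across 7 scalings, the log2 ratio of Pax1 ran from −1.44 to −0.43, that of Isl2 from −1.40 to −0.40 and that of Eya1 from −1.02 to −0.01. The log2 ratio of Six4 ran from 0.21 to 1.21 and that of Pax9 from 0.02 to 1.02. No member changed sign, but each of the other scalings raised all ratios relative to TMM, so the ratios already positive could not. With the totals behind the deposited RPKM, the log2 interval of Eya1 (−0.06 to 0.03) spanned equal levels. Tbx1, outside the comparison, ran from 0.64 to 1.64.

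**Figure D3:**
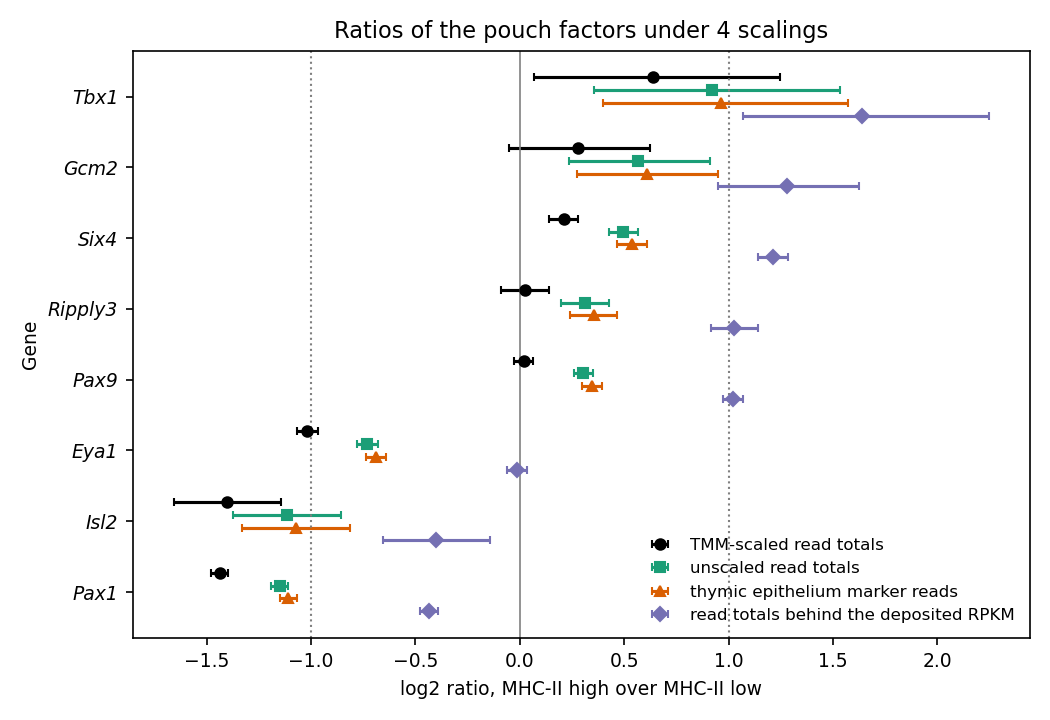
Log2 ratio (MHC-II high over MHC-II low) for each gene under 4 of the scalings, with exact 95% intervals of the reads and dotted lines at 2-fold. The scalings shift all genes by the same amount, so Pax1, Isl2 and Eya1 stay to the left of the other 5 genes under each.

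Because every scaling shifts all genes alike, ratios between members were also compared. Of 28 pairs, 21 had a ratio that differed between the libraries by an interval that did not reach equality. Of these, 15 set Eya1, Pax1 or Isl2, the genes with negative log2 ratios, against one of the other 5 genes, and so largely restate those ratios. The same share was not computed for pairs of other genes, so this count does not set the members apart. The largest difference of the 28 was in the Tbx1 to Pax1 ratio, which was 4.21-fold higher in MHC-II high cells, on the few reads of Tbx1 (interval 2.85 to 6.21). The Pax9 to Eya1 ratio was 2.05-fold higher in MHC-II high cells. The Pax9 to Ripply3 ratio per kilobase was 3.46 in MHC-II high and 3.48 in MHC-II low cells, and their quotient had an interval of 0.91 to 1.08. The Pax1 to Isl2 ratio was 25.7 in MHC-II high and 26.3 in MHC-II low cells, and their quotient had an interval of 0.82 to 1.16.

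RefSeq's promoter table of build GRCm38.p6 matched 6 of the 8 genes. The 250 bases before a listed start are shown for Pax1 and Isl2, the genes whose whole interval lay beyond 2-fold, and for Pax9 and Six4, whose levels were closer in the libraries. Six4 has more than 1 listed start, and the first is shown. Capitals mark a CCAAT box (CCAAT), a GC box (GGGCGG) or the core of a sine oculis site (TCAGGTT), each searched on both strands. The sites do not overlap each other in these windows.
Pax1, chr2:147364744-147364993, plus strand: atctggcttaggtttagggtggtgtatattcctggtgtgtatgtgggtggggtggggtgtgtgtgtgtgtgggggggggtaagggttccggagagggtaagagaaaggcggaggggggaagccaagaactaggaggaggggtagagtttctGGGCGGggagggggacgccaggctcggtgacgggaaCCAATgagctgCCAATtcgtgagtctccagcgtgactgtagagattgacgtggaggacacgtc
Isl2, chr9:55540899-55541148, plus strand: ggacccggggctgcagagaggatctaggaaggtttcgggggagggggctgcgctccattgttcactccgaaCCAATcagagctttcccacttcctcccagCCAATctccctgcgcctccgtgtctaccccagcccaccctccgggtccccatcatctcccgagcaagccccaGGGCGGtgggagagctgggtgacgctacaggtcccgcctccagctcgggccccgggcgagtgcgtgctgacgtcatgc
Pax9, chr12:56695221-56695470, plus strand: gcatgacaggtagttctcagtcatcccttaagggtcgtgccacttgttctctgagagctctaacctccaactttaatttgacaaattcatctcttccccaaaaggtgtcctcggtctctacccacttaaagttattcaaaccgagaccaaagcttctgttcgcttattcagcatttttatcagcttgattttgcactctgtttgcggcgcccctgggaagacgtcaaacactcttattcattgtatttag
Six4, chr12:73113246-73113495, minus strand: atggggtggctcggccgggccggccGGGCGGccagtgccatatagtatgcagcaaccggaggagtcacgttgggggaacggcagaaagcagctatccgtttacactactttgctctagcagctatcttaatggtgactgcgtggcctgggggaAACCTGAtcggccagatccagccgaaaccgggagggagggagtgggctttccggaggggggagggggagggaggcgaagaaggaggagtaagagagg
Both Pax1 and Isl2 held a pair of CCAAT boxes and a GC box. The Pax9 window held none of the motifs, and neither did that of Gcm2. The first Six4 window held a GC box and, on the other strand, a sine oculis core at 91 to 97 bases before its start, and the second Six4 window held a CCAAT box and a GC box. The Six4 windows overlap, and their GC box is the same site. Of the Tbx1 windows, the first held a GC box on the other strand and the second held none. CCAAT was found in 33.8%, GGGCGG in 32.7% and TCAGGTT in 3.49% of all 32851 promoter windows of this length. At least 2 CCAAT boxes together with a GC box were found in 4.02% of them. A link of this combination to the ratios was not tested. A TATA box (TATAAA, 12.4% of windows) and a T-box motif (AGGTGTGA, 1.12%) were searched too and were not in any member's window. The base composition differed, with 58.8% G and C in the Pax1, 66.8% in the Isl2, 43.6% in the Pax9 and 62.0% in the Six4 window, against a median of 52.4%. A match of letters is a description and not a bound site.

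Other genes of the same families gave the members a wider frame. The list counts from here on stand beside 14.5% higher and 10.9% lower over all genes compared. Of 24 listed paralogs 19 passed the minimum, 6 being higher and 3 lower in MHC-II high cells, with a median log2 ratio of 0.22. The 3 lower ones were Eya2, Six2 and Six5. Eya2 was 2.35-fold lower in MHC-II high cells, at 79.6 CPM in MHC-II high and 187 CPM in MHC-II low cells. Six2 was 3.30-fold lower, at 30.7 CPM in MHC-II high and 101 CPM in MHC-II low cells, and Six5 was 3.00-fold lower. The higher paralogs were Pax2, Pax7, Pax8, Tbx15, Tbx20 and Ripply2. Tbx15 was 7.98-fold higher, at 34.1 CPM in MHC-II high and 4.27 CPM in MHC-II low cells. Pax2, Pax8 and Ripply2 were under 1 CPM in MHC-II low cells and passed the minimum through MHC-II high cells alone.

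Of 8 genes of the sine oculis, Eya and Dach partners, the 3 named above were lower and Dach2, which passed the minimum through MHC-II high cells alone, was 5.13-fold higher in MHC-II high cells, while Eya3, Eya4 and Dach1 were among those not called. Of the corepressor list of Ripply3, 6 of 7 genes passed the minimum and Ripply2 alone was higher. The TLE genes were not called, Tle3 being at 155 CPM in MHC-II high and 115 CPM in MHC-II low cells and Tle5 at 221 CPM in MHC-II high and 351 CPM in MHC-II low cells. Of 6 genes for LIM partners of Isl2, the cofactor gene Ldb2 was 3.46-fold lower and the homeobox gene Lhx3 was 15.4-fold higher in MHC-II high cells, on 418 reads in MHC-II high and 9 reads in MHC-II low cells. Lhx3 too passed the minimum through MHC-II high cells alone. The cofactor gene Ldb1 and the paralog gene Isl1 had log2 ratios of −0.74 and −0.75, which turn positive with the totals behind the deposited RPKM.

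Of 17 other transcription factors of the pouches, 10 passed the minimum, 4 of them higher and 0 lower in MHC-II high cells. Foxa1 was 3.95-fold, Tbx3 6.18-fold, Nkx2-6 5.73-fold and Sox2 2.79-fold higher. Hoxa3, the factor that acts upstream of the Pax and Eya genes in the pouch, was at 3.87 CPM in MHC-II high and 8.71 CPM in MHC-II low cells. Its 2.25-fold lower level had an interval of 1.99 to 2.55 that reached below 2-fold.

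The signals that shape the pouches split in both directions. Of 21 such genes 19 passed the minimum, 4 being higher and 6 lower in MHC-II high cells, with a median log2 ratio of −0.59. The growth factor receptor gene Fgfr2 was 4.86-fold lower in MHC-II high cells, at 34.1 CPM in MHC-II high and 166 CPM in MHC-II low cells, and Wnt4 was 2.76-fold lower. Bmp4, a signal of the thymus domain, was 4.51-fold lower, at 0.962 CPM in MHC-II high and 4.33 CPM in MHC-II low cells. Of the genes called in this list, Bmp4 and Gli1 passed the minimum through MHC-II low cells alone and Fgf3 through MHC-II high cells alone, in each case the fraction where the gene was higher. Bmp2 was 2.36-fold higher in MHC-II high cells, at 108 CPM in MHC-II high and 45.7 CPM in MHC-II low cells. Shh, the signal that holds back thymus fate in the pouch, was at 2.91 CPM in MHC-II high and 1.04 CPM in MHC-II low cells and was 2.79-fold higher in MHC-II high cells.

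**Figure D4:**
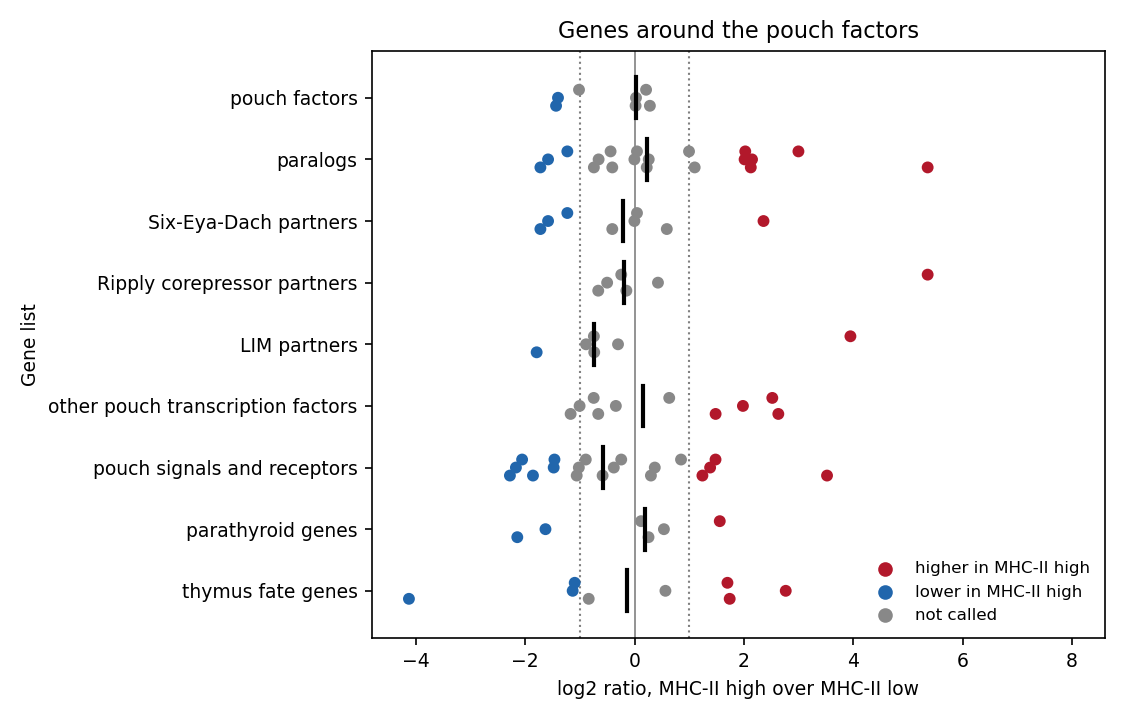
Log2 ratio (MHC-II high over MHC-II low) for the genes past the minimum in each list, with a black bar at the list's median and dotted lines at 2-fold. Red genes were higher and blue genes lower in MHC-II high cells by their whole interval; some genes are in more than 1 list.

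Gcm2 is known to switch on parathyroid genes in the embryo. Pth, the parathyroid hormone gene, had 1328 reads, or 8.69 CPM, in MHC-II high and 1953 reads, or 38.5 CPM, in MHC-II low cells. It was 4.43-fold lower in MHC-II high cells (interval 4.13 to 4.75), while Gcm2 was not called. Per kilobase, Pth stood far above Gcm2 in both libraries, at 12.1 CPM in MHC-II high and 53.7 CPM in MHC-II low cells while Gcm2 stood at 0.789 CPM in MHC-II high and 0.650 CPM in MHC-II low cells. The calcium sensor gene Casr was at 29.6 CPM in MHC-II high and 27.2 CPM in MHC-II low cells, and Gata3, which acts with Gcm2, had a log2 ratio of 0.25. The secretory granule gene Chga was 3.10-fold lower and the vitamin D receptor gene Vdr 2.94-fold higher in MHC-II high cells. In all, 1 of 6 genes past the minimum was higher and 2 were lower.

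Of 8 genes of thymus fate, 3 were higher and 3 lower in MHC-II high cells. Foxn1, the master regulator of thymic epithelium, was 3.24-fold higher, the Notch ligand gene Dll4 3.34-fold and the chemokine gene Ccl25 6.79-fold. Trp63, a factor of epithelial stem cells, was 2.14-fold lower, the cytokine gene Il7 2.19-fold and Ccl21a 17.5-fold. In the 8 pathway lists together, 74 genes were compared, 20 being higher and 15 lower in MHC-II high cells, with a median log2 ratio of −0.20. With the totals behind the deposited RPKM 3 were lower, and none of the genes named here as lower changed sign.

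Markers of other cells moved with the fractions, and their part in the ratios of the pouch genes was not tested. All 7 endothelial markers were lower in MHC-II high cells, with a summed level of 64.2 CPM in MHC-II high and 469 CPM in MHC-II low cells. The lowest level among them was 0.105 CPM in MHC-II high and 12.8 CPM in MHC-II low cells. At least 1 of them thus passed the minimum through MHC-II low cells alone, the fraction where it was higher. Of 7 fibroblast markers 5 were lower, at a summed 190 CPM in MHC-II high and 1088 CPM in MHC-II low cells, and of 6 tuft-like markers 5 were lower, at 420 CPM in MHC-II high and 1512 CPM in MHC-II low cells. Erythroid markers summed to 60.3 CPM in MHC-II high and 2141 CPM in MHC-II low cells, 2 of 3 past the minimum being lower. Cortical epithelial markers summed to 643 CPM in MHC-II high and 1549 CPM in MHC-II low cells, with 1 of 6 higher and 2 lower. Neuroendocrine-like markers summed to 375 CPM in MHC-II high and 447 CPM in MHC-II low cells, 1 of 6 being higher and 3 lower. Muscle-like markers, at 69.3 CPM in MHC-II high and 50.3 CPM in MHC-II low cells, and thymocyte markers, at 52.3 CPM in MHC-II high and 74.2 CPM in MHC-II low cells, each had 1 gene higher and 1 lower. Of 5 dendritic cell and macrophage markers past the minimum 4 were higher, summing over the list to 44.3 CPM in MHC-II high and 14.3 CPM in MHC-II low cells. No listed marker was at 0 in either library. The 5 markers of all thymic epithelium summed to 4167 CPM in MHC-II high and 5231 CPM in MHC-II low cells. Relative to those 5 markers, a scaling added after the data were seen, Pax1 was 2.16-fold lower in MHC-II high cells, and the interval of Isl2 (2.11-fold lower) reached below 2-fold.

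**Figure D5:**
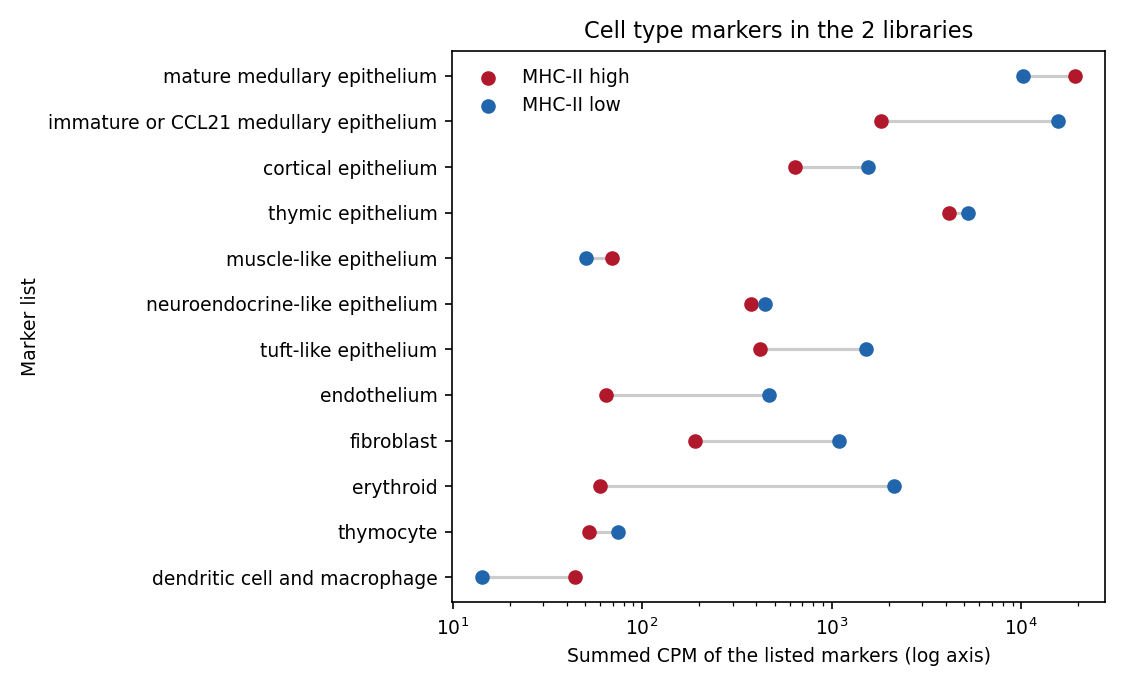
Summed CPM of each marker list (log axis) in the MHC-II high library (red) and the MHC-II low library (blue). Endothelial, fibroblast, erythroid and immature medullary markers lie lower in MHC-II high cells, and mature medullary and dendritic cell markers lie higher.

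The libraries do not keep strand, so reads of overlapping genes cannot be told apart. In GENCODE vM21, Pax1 overlaps the antisense gene AI646519, which had 121 reads in MHC-II high and 516 reads in MHC-II low cells, and Pax9 overlaps Slc25a21 on the other strand, which had 495 reads in MHC-II high and 233 reads in MHC-II low cells. Isl2 overlaps the antisense gene Gm17226, Pax9 also the antisense gene Gm15524, and Eya1 the genes Gm22616 and Gm37444. These had no values, so their part in the reads of Isl2, Pax9 and Eya1 is unknown. None of the 8 genes shared both of its read counts with another gene, as merged copies would. The nearest genes with values on either side of Eya1, Pax9, Tbx1, Isl2 and Ripply3 were not called. Of these, Nkx2-9, beside Pax9, was under the minimum, at 0.53 CPM on average, and so was not compared. Its ratio was 2.59 (interval 1.51 to 4.78). Beside Gcm2, Elovl2 was higher, and beside Pax1, the noncoding gene Nkx2-2os was lower in MHC-II high cells, at 0.386 CPM in MHC-II high and 3.19 CPM in MHC-II low cells. Nkx2-2os passed the minimum through MHC-II low cells alone. With 2 libraries, likeness can be measured only as the distance between levels. Nearest to Pax1 in log2 CPM per kilobase were Pard6g (distance 0.08) and Ucp2 (0.11), with 20 genes within 0.25, and nearest to Isl2 were Scg3 (0.01) and Slc35f1 (0.06), with 44 genes within 0.25.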

How the data were processed

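Poly-A RNA sequencing of MHC-II high and MHC-II low medullary thymic epithelial cells was analysed from 2 tables. Per the submitters' processing notes, Bowtie 1.0.0, CASAVA, bedtools and the build mm9 were used. The sources used here give neither their settings, nor the transcript annotation, nor whether mates were counted separately. The authors deposited, per the file headers, a read count, a length and an RPKM value for each RefSeq transcript. Every deposited RPKM follows from count and length with 1 total per library, 213854095 for MHC-II high and 142330178 for MHC-II low, and transcripts held 89.5% and 52.0% of those totals. Isoforms each hold the reads they share.

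Stray read records were left out, 18 lines in the MHC-II high and 36 in the MHC-II low table, and extra copies of a transcript were summed (840 lines). Accessions in both tables with equal length (29800) entered, and symbols came from RefSeq (GRCm38.p6) and GENCODE vM21. One transcript, that with the most reads, stood for each gene. No column of another sample was present. TMM totals (152834158 and 50769789) came from edgeR 4.0.16 in R 4.3.3 over genes with at least 1 CPM on average. Ratios have exact 95% Clopper-Pearson intervals, levels exact Poisson intervals, and ratios between members log-normal intervals. A gene was called when its whole interval lay beyond 2-fold. Intervals and calls were tested on simulated Poisson counts with known totals. Those counts hold no PCR copies, no spread between libraries and no scaling error, so the test does not cover these. The members were chosen with earlier results of these data known, as were the gene lists. Named genes were the members, up to 4 genes per list by reads with those called, nearest neighbours and nearest genes by level. Hoxa3, Gata3, Foxn1, Dll4, Bmp4, Shh and the higher paralogs were named beyond this rule after their values were seen. Some genes that the rule names are not reported here. Alternatives changed the scaling, the minimum, the call and the transcript.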

Additional observations from a re-analysis of the deposited data

How the results depend on the processing

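The call of Pax1 depends on the scaling, and that of Isl2 on the scaling and the minimum. Of 7 scalings, Pax1 was called lower in 6 and Isl2 in 4. The 2 genes were also the count of lower members with median-of-ratios totals, with totals that leave out the most abundant genes and with TMM over all genes. That count was 2 as well without a minimum and with either other choice of transcript. Those settings could not change the calls of Pax1 and Isl2, which had passed the minimum and have 1 listed transcript each. That count was 1 with unscaled totals, 1 with the 5 thymic epithelium markers as totals and 1 with a minimum of 5 CPM, which Isl2 did not pass. With the totals behind the deposited RPKM it was 0, and 1 member, Six4, was higher. Over 82 recomputed member ratios, 50 lay within the interval of the value reported and 32 outside, and 0 called ratios changed sign. All 32 came from other scalings. Settings that changed only the minimum or the call repeat the reported ratio and could not fall outside. The choice of transcript could alter only Eya1, the only member with more than 1 listed transcript. The count within is therefore no measure of stability.

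Over all genes, 2530 were higher and 1907 lower in MHC-II high cells (57.0% higher). With the RPKM totals 7232 were higher and 471 lower (93.9%), with unscaled totals 72.9% of calls were higher and with the epithelium markers 74.8%, 1218 genes being lower. Without a minimum 3822 were lower (42.6% higher), with a minimum of 5 CPM 1652 were higher, and with 1.5-fold in place of 2-fold 3973 were higher and 3562 lower. Of the pooled pathway genes, 3 were lower with the RPKM totals, 11 were higher with the minimum of 5 CPM and 25 were lower with 1.5-fold. Relative to TMM, the median over all genes moved by 0.29 (log2) with unscaled, 0.33 with epithelium marker and 1.003 with RPKM totals.

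The values rest on 1 library per group from 1 pool of mice, which leaves no replicate to drop. No paired analysis was possible because no group had a second library. Depth limits Tbx1, whose 31 reads in MHC-II low cells give its ratio a counting interval of 1.05 to 2.37 with TMM totals. Scaling limits it too, its ratio being 3.11 with the totals behind the deposited RPKM.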
